A study of Mus musculus with 6 samples.

Results

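The genes described here are the G1 cyclins Ccnd1, Ccnd2, Ccnd3, Ccne1 and Ccne2, the kinases they bind, Cdk2, Cdk4 and Cdk6, the pocket protein Rb1 and the transcription factor E2f1, in liver tumors compared with normal livers of C3H mice. They are 10 of the 34741 genes named on the array and were measured by 14 of its 55681 probes, chosen by gene name. Total RNA came from 3 normal livers and 3 macroscopic liver tumors with a Ha-ras mutation, taken from male C3H/HeN mice of 74 to 75 weeks. According to the study's methods, the mice belonged to the F2 generation of a control group that ate a standard diet and drank tap water, and the tumors arose spontaneously. No transgene is stated for either group. The labels do not say whether each sample came from a different animal, so the p-values measure the spread between these samples. In whole tissue, fewer cells of a type and less RNA per cell cannot be told apart.

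D-type cyclins pair with Cdk4 and Cdk6, and E-type cyclins pair with Cdk2. In the textbook account, growth signals that pass through Ras and ERK raise cyclin D1, its kinases phosphorylate Rb1, and E2F factors released from Rb1 switch on Ccne1 and the genes of DNA replication. Most hepatocytes of an adult liver are quiescent, and cyclin D1 is known to rise when they re-enter the cell cycle, as after partial hepatectomy.

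The promoters of Ccne1, Cdk2 and Cdk4 are shown because Ccne1 changed more than any other tested member while the values of the 2 kinases lay just above those of the normal livers. Each sequence is the 250 bases before the start of the gene in the RefSeq annotation of GRCm38.p6, written 5′ to 3′ on the strand of the gene. Capitals mark the letters of 3 motifs on either strand, which are TTTCCCGC, TTTGGCGC, TTTGCCGC or TTTCGCGC for E2F, GGGCGG for the GC box and CACGTG for the E-box, and no marked stretches overlapped.
Ccne1, chr7:38107491-38107740, minus strand: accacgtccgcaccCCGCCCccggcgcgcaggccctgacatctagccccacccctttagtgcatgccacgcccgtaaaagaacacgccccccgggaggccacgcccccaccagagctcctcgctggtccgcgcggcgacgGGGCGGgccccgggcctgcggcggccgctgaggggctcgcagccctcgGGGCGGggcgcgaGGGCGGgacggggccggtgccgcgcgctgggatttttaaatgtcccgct
Cdk2, chr10:128705052-128705301, minus strand: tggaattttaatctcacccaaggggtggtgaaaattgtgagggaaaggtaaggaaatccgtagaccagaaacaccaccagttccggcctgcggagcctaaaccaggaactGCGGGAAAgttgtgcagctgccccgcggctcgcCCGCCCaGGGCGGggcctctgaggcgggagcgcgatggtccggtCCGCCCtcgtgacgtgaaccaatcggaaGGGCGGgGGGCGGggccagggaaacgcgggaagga
Cdk4, chr10:127063285-127063534, plus strand: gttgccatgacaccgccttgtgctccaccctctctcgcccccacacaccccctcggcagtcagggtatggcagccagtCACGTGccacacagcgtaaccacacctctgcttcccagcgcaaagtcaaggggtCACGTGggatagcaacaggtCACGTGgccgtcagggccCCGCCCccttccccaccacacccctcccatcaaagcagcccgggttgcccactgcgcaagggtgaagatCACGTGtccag
The Ccne1 window held 4 GC boxes, beginning 236, 110, 62 and 49 bases before the start, and none of the E2F letters. That of Cdk2 held the E2F letters once, 140 bases before the start, together with 5 GC boxes. Cdk4 had 4 E-boxes, at 172, 118, 98 and 11 bases before the start, and 1 GC box. Over 32851 promoter windows of this length, 1.86% held the E2F letters, 32.7% a GC box and 6.02% an E-box. Neither the letters of a CRE (TGACGTCA, in 1.55% of windows) nor those of an AP-1 site (TGAGTCA, in 4.46%) were in any of the 3 windows. A match is a description of the letters in the window and says nothing about binding. The table of promoters had no entry for Ccnd1, Ccnd2, Ccne2 and Rb1.

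Values below are expression values, the processed signal of a probe divided by the 75th percentile of its array, so that 1 is the signal at that percentile. They can be compared between arrays for 1 probe but not between probes. A gene was called changed when limma gave an adjusted p under 0.05 over all tested probes, and where a gene had several probes, the call was that of its brightest probe. Of the 10 members, 9 passed the filter for signal above background and 8 were well above background on all 6 arrays. Ccnd1, Ccne1 and E2f1 were called higher in the liver tumors, 6 tested members were not called, and none was called lower by limma, nor at an unadjusted p under 0.05 (0 genes) or in the methods' t-test (0 genes). Over all 18545 tested genes 34.1% were called, 13.1% higher and 21% lower, so the share of tested members called in either direction was near that of all genes. The groups did not overlap for 6 of the 9 tested members, compared with 51.8% of all genes. Among these 6 is Cdk6, which passed the filter only through the tumors. The median log2 fold change of all tested genes was -0.13 and became 0.04 when the arrays were scaled by their spike-in controls, so small differences of members are to be read against that shift.

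**Figure D1:**
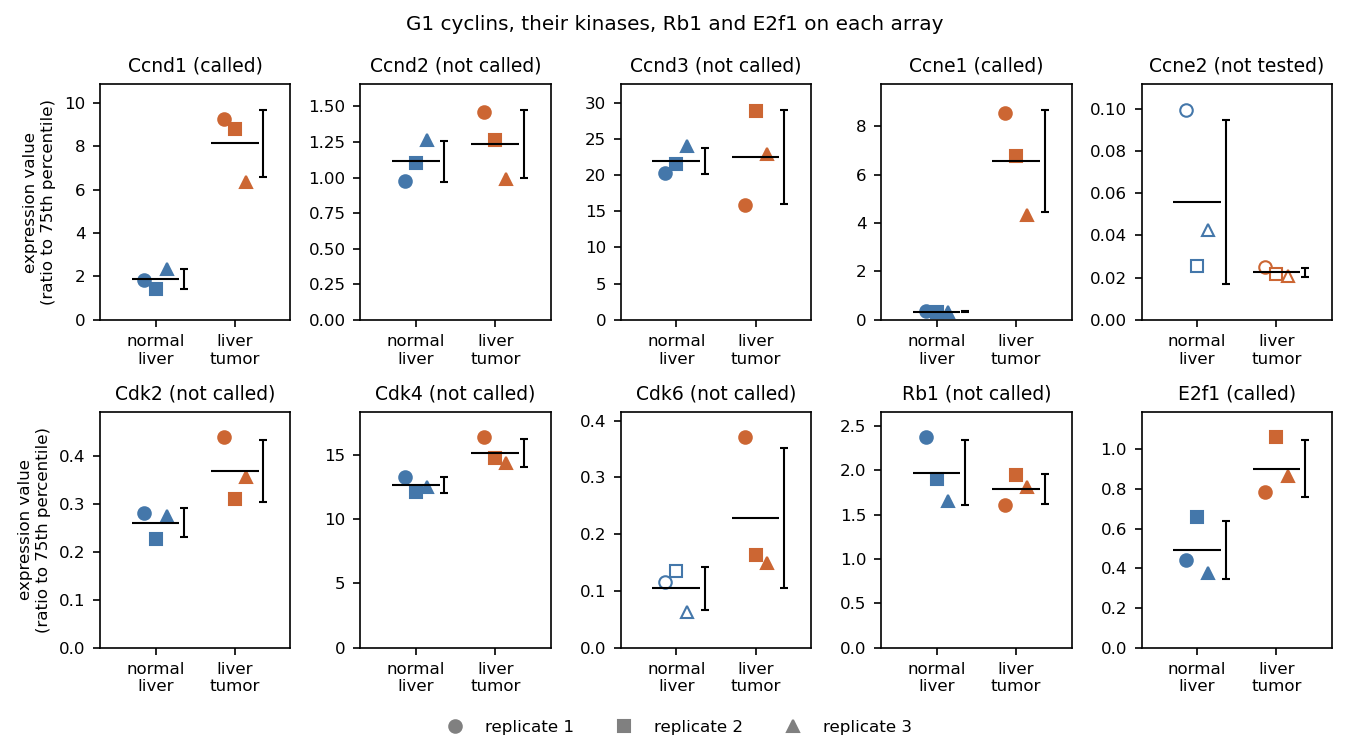
Expression value of each member on each of the 6 arrays, as a ratio to the array's 75th percentile on linear axes that start at 0. Blue points are normal livers and orange points liver tumors, open points belong to a group without an array on which the probe was well above background, horizontal lines are means and the bars beside them 1 SD (n = 3); the gap between the groups is widest for Ccne1 and Ccnd1.

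All 3 D-type cyclins were detected in the normal livers, and only Ccnd1 was called. Ccnd1 (chr7:144929931-144939831, GRCm38.p6) encodes cyclin D1, the D-type cyclin best known as a target of growth factor and Ras signalling. Its expression value was 1.82, 1.42 and 2.35 in normal livers 1 to 3 and 9.24, 8.79 and 6.36 in liver tumors 1 to 3. Every tumor lay above every normal liver, and tumor 3 was the lowest of the tumors. The mean rose from 1.86 ± 0.466 to 8.13 ± 1.55 (SD, n = 3 each). This is a log2 fold change of 2.14 (SE 0.23), or 4.40-fold with a 95% interval from 2.996 to 6.46 (limma, adjusted p = 0.00173).

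Ccnd2 (chr6:127125162-127152188) encodes cyclin D2, which does the same work in other tissues, the ovary and B cells among them. Its values were 0.977, 1.10 and 1.26 in the normal livers and 1.46, 1.26 and 0.987 in the tumors, and the groups overlapped. The log2 fold change was 0.14, with a 95% interval from -0.29 to 0.58 (limma, adjusted p = 0.587).

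Ccnd3 (chr17:47505051-47599689) encodes cyclin D3, the D-type cyclin of many differentiated cells and of lymphocyte precursors. The brighter of its 2 probes gave 20.3, 21.6 and 24.0 in the normal livers and 15.8, 28.8 and 23.0 in the tumors. The tumors thus spread on both sides of the normal livers, and the log2 fold change was 0.00 to 2 decimals, with a 95% interval from -0.54 to 0.54 (limma, adjusted p = 0.995). The other probe gave 6.38, 5.82 and 6.73 in the normal livers and 7.46, 8.33 and 6.34 in the tumors, which is a log2 fold change of 0.22 (SE 0.14, limma adjusted p = 0.267). Neither probe was called, and the intervals of Ccnd2 and of both Ccnd3 probes ended below the lower bound of Ccnd1, which was 1.58 on the log2 scale. The intervals belong to different probes, and the difference between the genes was not tested.

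Of the 2 E-type cyclins, Ccne1 was higher in the tumors by more than any other tested member, and the only probe of Ccne2 did not clear background. Ccne1 (chr7:38097984-38107490) encodes cyclin E1, which activates Cdk2 at the passage from G1 into S phase. The brighter of its 2 probes gave 0.346, 0.323 and 0.341 in the normal livers. In tumors 1 to 3 it gave 8.57, 6.79 and 4.34. The 3 normal livers lay close together, while the tumors differed among themselves and fell in the same order as for Ccnd1. The mean rose from 0.337 ± 0.0118 to 6.57 ± 2.13 (SD, n = 3 each), a log2 fold change of 4.23 (SE 0.25) or 18.8-fold, with a 95% interval from 12.5 to 28.2 (limma, adjusted p = 0.000194).

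The second Ccne1 probe is printed here because its position differs from that of the brighter probe of this gene, which had the largest change. Whether it lies in an exon was not determined.
A_66_P125327, chr7:38885574-38885633 of mm9 by the array design: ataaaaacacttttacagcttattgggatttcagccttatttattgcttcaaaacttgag
It has 60 bases and a GC content of 30%, and 1 reading frame runs through it without a stop codon. Its values were 0.0339, 0.0266 and 0.0249 in the normal livers, without clearing background on these arrays, and 0.228, 0.152 and 0.157 in the tumors, well above background on all 3. Since the normal livers had only a bound, the tumors were at least 1.55-fold higher by this probe, measured against the lowest signal well above background on each array (limma on the measured values, adjusted p = 0.00053). This probe passed the filter only through the tumors, so its p is no separate support for Ccne1. The brighter probe was well above background on all 6 arrays.

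Ccne2 (chr4:11190433-11204779) encodes cyclin E2, the close relative of cyclin E1. Its probe gave 0.0996, 0.0253 and 0.0425 in the normal livers and 0.0248, 0.0217 and 0.0209 in the tumors. No array showed it well above background, so it was not tested and no difference can be read from these values. The probe has a GC content of 15%, and how well it detects Ccne2 RNA was not tested.

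None of the 3 kinases was called by limma, and 2 of them, Cdk2 and Cdk6, had intervals that lay above 0 before adjustment. The Cdk6 probe passed the filter only through the tumors, so its interval is a description. Cdk2 (chr10:128697938-128705051) is the partner of the E-type cyclins and later of cyclin A. Its values were 0.282, 0.227 and 0.275 in the normal livers and 0.440, 0.311 and 0.357 in the tumors. The lowest tumor lay above the highest normal liver, though by little. The log2 fold change was 0.49 (SE 0.17) with a 95% interval from 0.09 to 0.89 (limma, adjusted p = 0.0644). With the replicate number as a block the adjusted p was 0.0453 (limma).

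Cdk4 (chr10:127063535-127067288) is a partner of the D-type cyclins and was measured by 3 probes. The brightest gave 13.3, 12.1 and 12.5 in the normal livers and 16.3, 14.7 and 14.4 in the tumors. The groups did not overlap, and the log2 fold change of 0.26 (SE 0.11) was not called (limma, adjusted p = 0.113). Another probe, at 2.51, 2.48 and 2.40 against 3.37, 2.78 and 2.85, gave a log2 fold change of 0.28 (limma, adjusted p = 0.116). The third, at 7.19, 6.01 and 6.95 against 8.52, 7.07 and 7.28, gave 0.18, with overlapping groups (limma, adjusted p = 0.323). All 3 probes were higher in the mean of the tumors, and the interval of the brightest, from -0.0012 to 0.52 on the log2 scale, leaves out a rise of 2-fold.

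Cdk6 (chr5:3341004-3531008) is the other partner of the D-type cyclins. It did not clear background on the normal liver arrays, at 0.115, 0.135 and 0.0621, and was well above background on the 3 tumor arrays, at 0.370, 0.164 and 0.149. Tumor 1 stood apart from the other tumors, which were close to the highest normal liver. Against the bound of the normal livers the tumors were at least 1.76-fold higher in the mean, and the measured values gave a log2 fold change of 1.08 (SE 0.43), which was not called (limma, adjusted p = 0.102). The value of this dim probe depended on the processing. It was 0.24 with normexp background correction, 0.66 without tumor 1 and 0.74 without normal liver 3. Scaling by the spike-in controls gave 1.24 and made it called (limma, adjusted p = 0.0198).

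Rb1 (chr14:73192858-73325951) encodes the retinoblastoma protein, the substrate of these kinases and an inhibitor of E2F factors. Its probe was printed in 10 spots of each array, unlike those of the other members, which had 1. The mean of the spots was 2.37, 1.90 and 1.65 in the normal livers and 1.61, 1.95 and 1.81 in the tumors. The groups overlapped, with a log2 fold change of -0.13 and a 95% interval from -0.52 to 0.27 (limma, adjusted p = 0.586). The array measures Rb1 RNA and not its phosphorylation.

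E2f1 (chr2:154559400-154569892) encodes the transcription factor that Rb1 restrains, and E2f1 is itself among the genes that E2F factors switch on. Its values were 0.443, 0.656 and 0.374 in the normal livers and 0.783, 1.06 and 0.866 in the tumors. Every tumor was above every normal liver, and normal liver 2 came closest to the tumors. The mean rose from 0.491 ± 0.147 to 0.903 ± 0.142 (SD, n = 3 each), a log2 fold change of 0.91 (SE 0.23) or 1.88-fold, with a 95% interval from 1.27 to 2.77 (limma, adjusted p = 0.0274). This call depended on single arrays. It was kept in 2 of the 6 fits with 1 array left out, those without normal liver 2 (adjusted p = 0.0162) and without tumor 1 (adjusted p = 0.0401), and was lost without normal liver 1 (0.0799), normal liver 3 (0.0712), tumor 2 (0.0801) or tumor 3 (0.0597). The log2 fold change in these fits lay between 0.73 and 1.14.

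**Figure D2:**
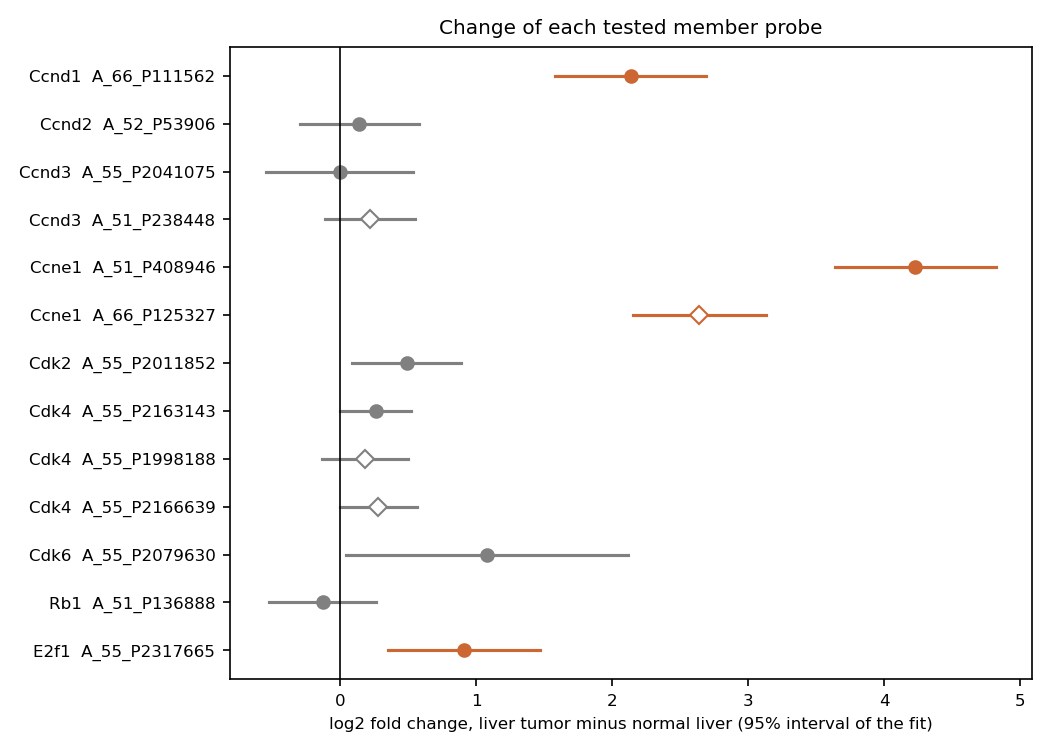
Log2 fold change, liver tumor minus normal liver, of the 13 tested member probes, with the 95% interval of the limma fit. Circles are the probes that represent their gene and open diamonds the other probes, orange is an adjusted p under 0.05 and grey is not; the 2 Ccne1 probes and Ccnd1 lie farthest above 0, at 4.23, 2.64 and 2.14.

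The cutoffs of the study's methods, a change of 2-fold or more in the mean and a mean above 1.0 in either group, together with an unadjusted p under 0.05 in the unpaired form of the methods' t-test, were met by 2 members, Ccnd1 and Ccne1. The study's methods name the paired form of that test, in which 0 members were called after Benjamini-Hochberg adjustment. Unadjusted p-values of the paired form are not given here, so whether Ccnd1 and Ccne1 meet the criteria with it stays undetermined. E2f1 changed by less than 2-fold and stayed below 1.0 in both means. Among the 9 tested members, tumor 1 had the highest value of the 3 tumors in 6 and tumor 3 in none, and tumor 3 had the lowest in 5. Among the normal livers no array took more than 4 of the highest or of the lowest values.

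The rest of the G1 network was read from lists of 65 genes, of which 59 were tested, 25 were called higher and 5 lower, with a median log2 fold change of 0.10. Over all tested genes 13.1% were called higher and 21% lower, and the counts of each list below are to be read beside these shares. No called gene of these lists changed sign under normexp correction, quantile normalization, the percentile of non-control probes or the spike-in scaling. Of the inhibitors of the G1 kinases, 5 of 7 were called higher and none lower (limma, with 1 lower at an unadjusted p under 0.05 and 0 lower in the methods' t-test after adjustment), and the median was 1.55. Cdkn2b, the gene of p15Ink4b that binds Cdk4 and Cdk6, had values of 0.188, 0.240 and 0.143 in the normal livers and 24.2, 19.0 and 16.3 in the tumors. This was a rise of 105-fold, with a log2 fold change of 6.72 (SE 0.23, limma adjusted p = 3.32e-05), and its second probe was at least 21.6-fold higher. That second probe passed the filter only through the tumors.

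Cdkn2a, the locus of p16Ink4a and p19Arf, rose from 0.555, 0.734 and 1.56 to 26.0, 20.5 and 9.78, or 20.1-fold (limma, adjusted p = 0.00203). The second probe of Cdkn2a was not well above background in the normal livers and at least 10.1-fold higher in the tumors. Which of the 2 products of the locus each probe reads was not determined. Cdkn1a, the gene of p21 that inhibits Cdk2 complexes, rose from 1.92, 1.35 and 1.01 to 7.95, 9.11 and 4.78, or 5.09-fold (limma, adjusted p = 0.00362). Other Cdkn1a probes did not clear background in the normal livers and were not tested. For 1 of them the groups overlapped, at 0.101, 0.0636 and 0.0503 against 0.161, 0.149 and 0.0537. Another was at least 1.66-fold higher, with 2 of the tumors well above background. Cdkn2c, the gene of p18Ink4c, rose 2.92-fold (limma, adjusted p = 0.00769). Outside the rule for named genes, Cdkn1c rose 1.60-fold and lost its call with normexp correction, and Cdkn1b and Cdkn2d, the genes of p27 and p19Ink4d, were not called. The tumors held more RNA of Ccnd1 and Ccne1 and also of inhibitors that act on both kinds of kinase complex.

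Among the other pocket proteins, E2F factors and their DP partners, 3 of 11 were called higher and 3 lower, with a median of -0.37. Rbl1, the gene of the pocket protein p107, rose 3.14-fold by its brighter probe (limma, adjusted p = 0.00102), with values of 0.139, 0.107 and 0.130 in the normal livers, 1 of them well above background, and 0.336, 0.422 and 0.422 in the tumors. This probe passed the filter only through the tumors. The other Rbl1 probe lay the other way, at 0.192, 0.139 and 0.0406 in the normal livers, 2 of them well above background, and 0.0894, 0.0590 and 0.0708 in the tumors, none of them well above background, and was not tested. The activators E2f2 and E2f3 rose 2.49-fold and 2.27-fold (limma, adjusted p = 0.00205 and 0.00554). A second E2f3 probe, which passed the filter only through the tumors, was 1.98-fold higher and not called (limma, adjusted p = 0.0516). E2f8, an atypical E2F that represses transcription and is known for its part in hepatocyte polyploidy, fell from 1.52, 1.06 and 1.99 to 0.139, 0.375 and 0.468, or 5.08-fold lower (limma, adjusted p = 0.0131). With 2 of the tumors well above background, the E2f8 probe passed the filter only through the normal livers, so its call is a description. The other genes called lower, named after their values were seen, were Rbl2, the gene of the pocket protein p130 of quiescent cells, at 1.96-fold lower, and E2f6, a repressor, at 1.30-fold lower. The call of E2f6 was lost with normexp correction, quantile normalization and the spike-in scaling.

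Genes that E2F factors switch on for DNA replication were called higher in 10 of 15 tested cases and lower in 1, with a median of 0.78. Rrm2, the small subunit of ribonucleotide reductase, rose 6.08-fold (limma, adjusted p = 0.000173), with values of 0.932, 1.09 and 0.908 in the normal livers and 5.66, 6.93 and 5.30 in the tumors. Mybl2, a transcription factor of the cell cycle, rose 5.44-fold, and Mcm5 and Mcm2, subunits of the replicative helicase, rose 4.38-fold and 4.29-fold. Mcm2, with 2 normal livers well above background, passed the filter only through the tumors, so its call is a description. The group did not move as one. Tk1, thymidine kinase of S phase and named after its values were seen, fell from 9.30, 11.6 and 8.70 to 3.93, 5.91 and 4.63, or 2.06-fold lower (limma, adjusted p = 0.00912). Pcna, Mcm7 and Mcm4 were among the genes not called, and 4 further genes were not tested, Cdc6 and Orc1 among them, which did not clear background on the 6 arrays.

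Cyclins of later phases and Cdk1 were called higher in 5 of 5 cases, with a median of 3.57. Of these, Ccnb1, Ccna2 and Cdk1 passed the filter only through the tumors, so their calls are a description. Ccnb1, cyclin B1 of mitosis, did not reach the background limit in any normal liver and had values of 2.04, 2.06 and 1.16 in the tumors, which is at least 14.9-fold more (limma, adjusted p = 0.000222). Ccna2, the partner of Cdk2 and Cdk1 in S phase and G2, rose 17.9-fold, from 0.0427, 0.176 and 0.0899, with 1 of these well above background, to 1.84, 1.68 and 1.25. Ccnb2 rose 11.9-fold, from 0.495, 0.353 and 0.403 to 6.94, 5.16 and 3.27. Ccnf rose 2.21-fold. Cdk1, the kinase of mitosis, rose 4.41-fold by its brightest probe (limma, adjusted p = 0.00292), while its second probe was not called (adjusted p = 0.099) and the third did not clear background on the 6 arrays. Tumor 3 held the lowest value of the tumors in 17 of the 25 pathway genes called higher, as it did for Ccnd1 and Ccne1.

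**Figure D3:**
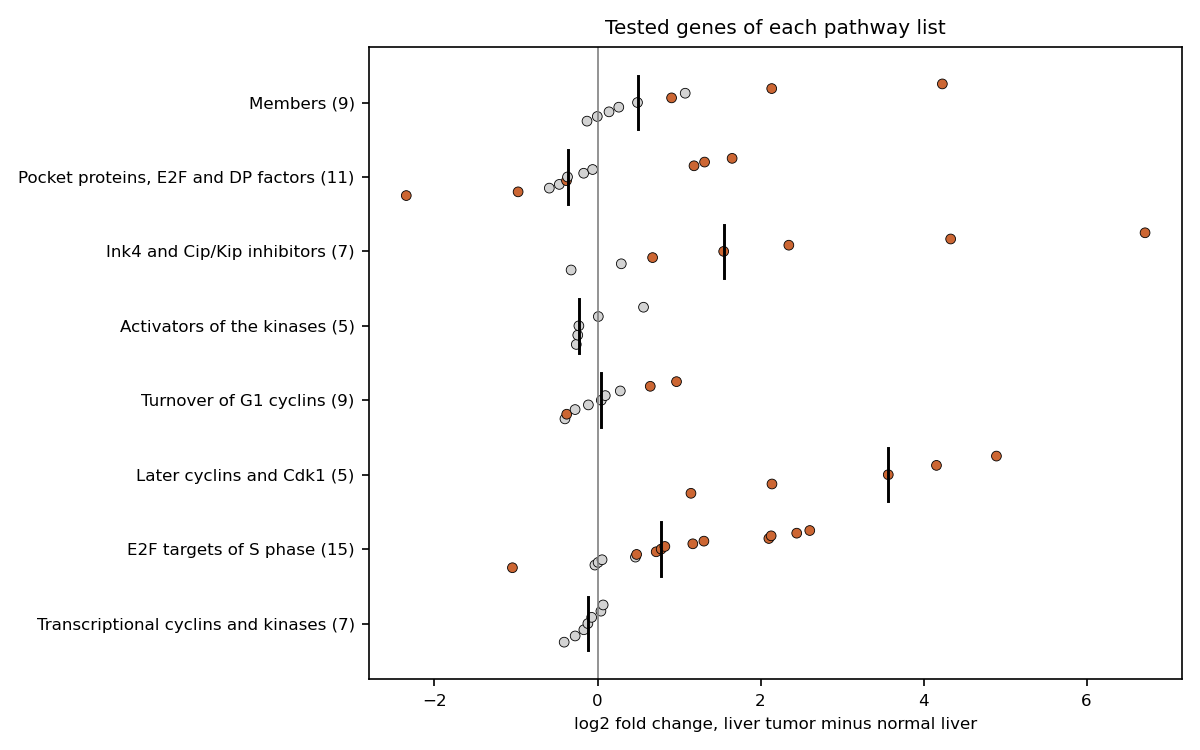
Log2 fold change, liver tumor minus normal liver, of the tested members and of the tested genes of each pathway list, with the number of genes in parentheses. Orange points are genes called by limma at an adjusted p under 0.05, grey points are not called, and vertical bars are medians; all 5 later cyclins and Cdk1 and 5 of 7 inhibitors lie above 0 and are called, and no transcriptional cyclin or kinase is called.

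In a list of 10 genes that serve the turnover of G1 cyclins, 9 were tested, 2 were called higher and 1 lower, a share near the 34.1% of all genes, and the median was 0.05. Fbxw7, the F-box protein that marks cyclin E for degradation, rose 1.96-fold, from 1.29, 1.33 and 1.15 to 2.90, 2.92 and 1.75 (limma, adjusted p = 0.0179). A second Fbxw7 probe was called too, at 1.61-fold. Cks1b, a cofactor in the degradation of p27, rose 1.57-fold by its brighter probe and was not called by the other (limma, adjusted p = 0.0947). Cul1, the scaffold of that ligase, was 1.30-fold lower and lost its call with normexp correction, quantile normalization and the spike-in scaling. Skp2, the F-box protein that marks p27, was not tested. Among the 5 activators Cdk7, Ccnh, Mnat1, Cdc25a and Cdc37, none was called (limma, with 1 higher at an unadjusted p under 0.05, Cdc25a, and 0 in the methods' t-test), and the median was -0.23. Cyclins and kinases of transcription, which bear the same family names but do not drive the cell cycle, had 0 of 7 tested genes called (limma, with 1 lower at an unadjusted p under 0.05, Ccnk, and 0 in the methods' t-test) and a median of -0.12. Probes of 1 gene disagreed in some cases seen afterwards: Fbxo31, which marks cyclin D1 for degradation, was not called by its brightest probe and was 2.32-fold lower by another, Tfdp2 was likewise 1.87-fold lower by a second probe, and another Cdk9 probe was 1.43-fold higher.

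The 3 genes whose values were most like those of Ccne1 over the 6 arrays were Adamts14, Cgref1 and Tnfrsf12a. Likeness was the root mean square difference of log2 values, each centred on the mean of the gene, and was 0.17, 0.18 and 0.21. Adamts14, a metalloproteinase that trims procollagen, gave 0.450, 0.405 and 0.416 in the normal livers and 10.6, 6.81 and 4.19 in the tumors. Cgref1 gave 0.286, 0.277 and 0.390, then 8.39, 6.58 and 3.38. Tnfrsf12a, the receptor of the cytokine TWEAK, gave 3.13, 2.73 and 3.86, then 70.3, 47.0 and 39.0. In all 3 the tumors fell in the same order as for Ccne1, with tumor 1 highest and tumor 3 lowest. The measure chose these genes, and their changes are a description.

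Markers of hepatocytes were well above background on all arrays, and the summed level of the 6 markers was 4239 to 4774 in the normal livers and 4595 to 4899 in the tumors, with 1 called higher and 1 lower. Of 6 macrophage markers, 4 were called lower, and their sum was 72.7 to 115.9 in the normal livers and 36.9 to 58.3 in the tumors. For 6 endothelial markers, 2 called lower, the sum was 103.6 to 117.2 against 80.0 to 88.7. For 8 markers of stellate cells and fibroblasts, 2 called higher and 3 lower, it was 7.24 to 11.3 against 11.6 to 16.7. For cholangiocytes, with 4 of 6 markers tested and none called by limma, it was 2.33 to 2.93 against 1.89 to 2.19, and for neutrophils, with 5 of 6 tested and 1 called lower, 8.53 to 11.5 against 8.64 to 22.2, with the brightest Mpo probe below the background limit on all 6 arrays and another above it in tumor 1. Of 7 markers of T and B lymphocytes 3 were tested, 1 was called higher, and Cd8a did not clear background on the 6 arrays. The sum of that list was 65.3 to 69.2 against 141 to 244 and came almost wholly from 1 bright Cd4 probe, while another Cd4 probe was called lower. Each sum is ruled by its brightest probes, and that of stellate cells and fibroblasts rose while 3 of its 8 markers were called lower. The sums of macrophage, endothelial, stellate, cholangiocyte and lymphocyte markers did not overlap between the groups, and the part of these cells in the members' values was not tested. The arrays of the normal livers lay on 1 slide and those of the tumors on another, and an effect of the slide cannot be told apart from one of the tissue. Local background had a median of 42 to 45 on the first slide and of 22 to 23 on the second, and 43.5% to 45.9% of probes were well above background in the former and 45.9% to 47.6% in the latter.

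**Figure D4:**
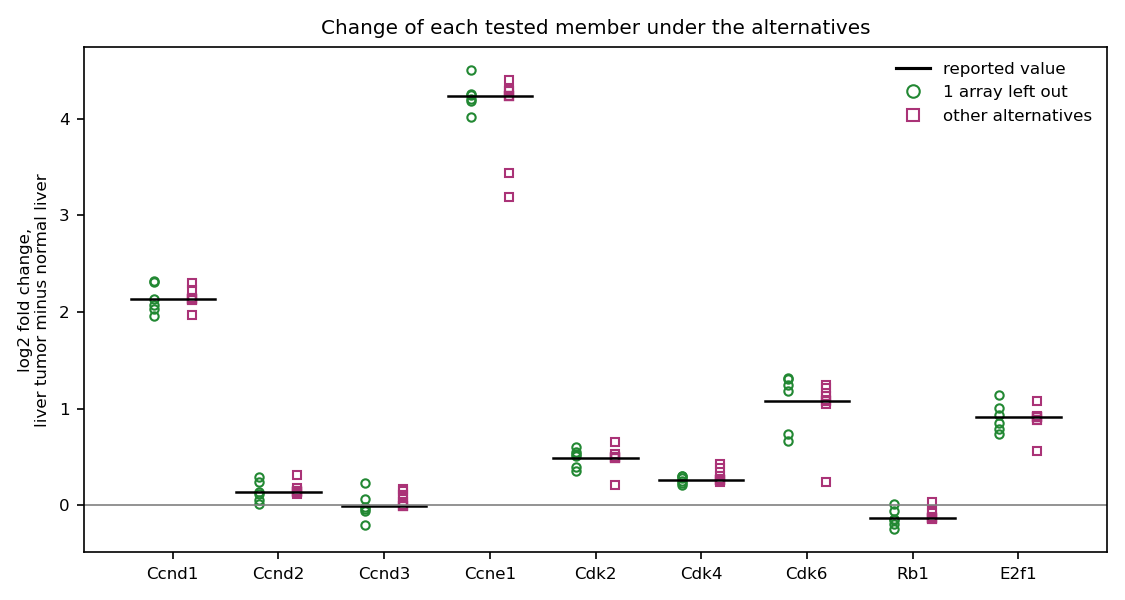
Log2 fold change, liver tumor minus normal liver, of each tested member as reported (black line), with 1 array left out (green circles) and under the other alternatives (purple squares). Ccnd1 stayed between 1.96 and 2.32 and Ccne1 between 3.19 and 4.50, E2f1 stayed above 0, and Ccnd3 and Rb1 lay on both sides of 0.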

How the data were processed

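Total RNA of 3 normal livers and 3 liver tumors was labelled with Cy3 and read on 1-colour SurePrint G3 Mouse GE arrays. The authors deposited Feature Extraction output (version 10.7.3.1 by the file headers, 12.0.3.1 by the submitters' processing notes), in which the processed signal is an intensity after background subtraction and spatial detrending, with a surrogate value where a spot does not exceed background. The authors also deposited linear ratios of this signal to the 75th percentile of the array, and 100% of the ratios matched that percentile over all spots, controls included, within 0.006 or 0.05%. The deposited flags for background, outliers and saturation were used as other data per the file headers, and no spot was saturated.

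Each deposited intensity was divided by the 75th percentile of its array and taken to log2. Control and outlier spots were left out, and spots of a probe were averaged. A probe counted as well above background on an array when at least 0.5 of its spots did. A probe was tested if it passed this limit on all 3 arrays of 1 or both groups, which left 24901 of 55681 probes. The test was two-sided, from lmFit and eBayes of limma 3.58.1 under R 4.3.3, and p-values were adjusted by Benjamini-Hochberg over these probes, with a threshold of 0.05. The number of arrays limits the precision, and an exact permutation test of 3 against 3 arrays cannot go below 0.1. The brightest probe by mean log2 signal stands for its gene. For a probe that missed the limit on all arrays of 1 group, the fold is a lower bound, in which each such array enters with its lowest signal that passed the limit or with the value of the probe, whichever is higher. Python 3.11.15 with pandas 2.3.3, numpy 2.4.6 and matplotlib 3.10.9 made the tables and plots. The fit was tested on simulated data.

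Probes were named from RefSeq annotation of GRCm38.p6 by accession (27235 probes), symbol (3581) or synonym (565), and the name of the array design was kept for 24300. Gene positions and promoter sequences are from the same annotation. The probe sequence and its mm9 position are from the array files. No genome or protein sequence was used here.

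The members and the lists were chosen with earlier results of these data known. All members and all their probes are named. Of each pathway list, up to 4 called genes with the largest change are named, and any gene of a list of 5 or fewer. Cell type markers are given by counts and sums and named where at or under background. The 3 genes most like the member with the largest change are named. The alternatives were quantile normalization, normexp background correction (offset 50), the percentile of non-control probes, spike-in scaling, no filter, a filter on all 6 arrays, the deposited ratios, eBayes with a trend, the replicate number as a block, averaging the probes of a gene, the methods' t-test on linear values, unpaired and paired, and leaving out each array.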

Additional observations from a re-analysis of the deposited data

How the results depend on the processing

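Ccnd1 and Ccne1 were called higher in the tumors under 16 of the 17 alternatives fitted for single members, the exception being the paired form of the methods' t-test with Benjamini-Hochberg adjustment, in which 0 members and 0 pathway genes in either direction were called. The number of members called higher was 2 to 3 with 1 array left out and 2 to 4 under the other limma fits, the fourth being Cdk2 with the replicate block and Cdk6 with spike-in scaling. E2f1 lost its call in 4 of 6 fits with 1 array left out, without the filter (adjusted p = 0.0843) and in the unpaired methods' t-test (0.0803). Without the filter 2 members were called, E2f1 being the one lost. Ccnd3, which was not called under any of these 17, changed sign to 0.11 with normexp correction, 0.14 with quantile normalization, 0.0053 with the percentile of non-control probes, 0.16 with spike-in scaling, 0.11 with the mean of its probes and 0.037 in both forms of the methods' t-test, and lay between -0.20 and 0.23 with 1 array left out. Rb1 became 0.038 with spike-in scaling and lay between -0.25 and 0.011 with 1 array left out. The 25 pathway genes called higher became 13 in the unpaired methods' t-test, 19 without the filter, 20 with the filter on all 6 arrays and 20 to 23 with 1 array left out. The 5 called lower became 3 with quantile normalization, 3 with spike-in scaling, 3 without the filter, 6 with an eBayes trend, 7 with the mean of a gene's probes and 3 to 5 with 1 array left out, with 3 without normal liver 2, normal liver 3, tumor 2 or tumor 3. Apart from fewer or more arrays and probes tested, the cause was not tested. Samples of the 2 groups share replicate numbers, and the labels do not say whether they pair. Deviations of same-numbered samples from their group means correlated at 0.07, 0.13 and 0.05, and those of the other pairs at -0.139 to 0.055. With 3 samples per group these values cannot decide whether the samples were paired. The replicate block moved the members called higher from 3 to 4, the pathway genes called higher from 25 to 22 and those called lower from 5 to 4. Dim probes, such as those of Ccne2 and Cdk6, are limited by background, which differed between the slides.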
